A study of Mus musculus with 4 samples.

Results

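Peripheral myelin is made by Schwann cells, each of which wraps a single segment of an axon in a spinal root or nerve, whereas oligodendrocytes make the myelin of the spinal cord itself. After a contusion, Schwann cells are known to enter the lesioned cord from the roots and can myelinate axons there. The 8 genes described here, PMP22, PMP2, PRX, CLDN19, NCMAP, GLDN, EGR2 and DRP2, encode structural proteins of that myelin, a protein of its nodes and a transcription factor that drives its formation. They were chosen by name with measured values of these data in view, among them the difference between ApoE3 and ApoE4 lesions at 21 days post injury (dpi), so they were selected on measured values, which are given as a description with no test. Symbols are printed in capitals, as in the deposited table, which lists 7 of the 8 among 14717 symbols in all. Of the 8 genes, 5 were listed at 7 dpi (of 14123 symbols) and 7 at 21 dpi (of 11470 symbols). PRX, which encodes periaxin, was listed at neither time point, and PMP2 and CLDN19 were listed at 21 dpi only. A gene that is not listed has no value here, which is not the same as a value of 0.

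RNA-seq was done on segments of about 4 mm around the lesion of male mice, in which a human ApoE3 or ApoE4 coding region replaces that of the mouse Apoe gene (targeted replacement). All groups received a contusion of 50 kdyne at the vertebral level T9, and no uninjured group was analysed here. The 4 groups were ApoE3 and ApoE4 mice at 7 dpi and ApoE3 and ApoE4 mice at 21 dpi, and by the study's methods the mice were 3 to 5 months old when assigned to surgery. By the study's methods each group held 3 mice, but the table holds 1 pooled value per gene and group, with no value for each mouse, so no spread between mice is known here and no difference below was tested. The number of reads behind a value is unknown.

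Levels are FPKM, that is, fragments scaled to transcript length and to the size of the library. A difference is the log2 ratio of 2 groups after adding 1 to each FPKM, so the change of a gene near 0 is understated. At 21 dpi the median gene with a mean FPKM of at least 1 had a log2 ratio of -0.42 for ApoE3 over ApoE4, and 93.8% of the genes listed then had a ratio below 0. The corresponding median was 0.002 at 7 dpi, and 0.089 and 0.53 for 21 over 7 dpi in ApoE3 and ApoE4. Ratios were therefore centred, that is, taken relative to this median, and a gene was called when its centred ratio was at least 2-fold. Without centring, 85 genes were at least 2-fold higher and 432 at least 2-fold lower in ApoE3 at 21 dpi, against 157 and 126 with it. A gene or list with a centred log2 ratio between 0 and 0.42 at that time was thus lower in ApoE3 before centring.

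The genotype of the value columns has 2 possible readings. Each row names its comparison as ApoE3 over ApoE4 and the study reads it so, which is the reading used here, but the numbering of the columns would give the reverse. Under that other reading every difference between genotypes below has the opposite direction, and the changes over time given for ApoE3 belong to ApoE4 and the reverse.

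PMP22 encodes peripheral myelin protein 22, a membrane protein of compact myelin that other cells such as fibroblasts and endothelial cells also make. Among the peripheral myelin genes described here that were listed, it was the most abundant in all 4 groups. Its level was 693 FPKM in ApoE3 and 671 FPKM in ApoE4 at 7 dpi, and 1970 FPKM in ApoE3 and 992 FPKM in ApoE4 at 21 dpi. Both genotypes were thus alike at the early time, and the later ApoE3 group stood above the other 3. PMP22 exceeded 97.6% of listed genes in ApoE3 and 97.5% in ApoE4 at 7 dpi, and 99.3% and 97.4% at 21 dpi.

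CLDN19 encodes claudin-19, the tight junction protein that seals Schwann cell myelin. At 21 dpi it had 18.6 FPKM in ApoE3 and 0.188 FPKM in ApoE4, which is near the bottom of the table in the ApoE4 group, where it exceeded 0.209% of the listed genes. In ApoE3 it exceeded 41.2%. Its centred log2 ratio of 4.47 was the highest of the 7 listed genes and ranked 5 among all 11470. The size of that ratio depends on the pseudocount, being 6.47 when 0.1 and 7.00 when 0.01 was added to each FPKM. PMP2, a fatty acid binding protein of the cytoplasmic face of peripheral myelin, was low in both groups, with 2.74 FPKM in ApoE3 and 0.532 FPKM in ApoE4. It exceeded 9.55% of listed genes in ApoE3 and 0.340% in ApoE4, and its centred log2 ratio of 1.71 became 2.61 and 2.79 with these smaller pseudocounts. The libraries came from a kit that does not mark the strand. In the GENCODE annotation exons of CLDN19 overlap those of the antisense gene Gm12927, and exons of PMP2 overlap those of Gm37389 on the same strand, so reads of these pairs cannot be told apart where they overlap.

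NCMAP encodes a noncompact myelin-associated protein of the Schwann cell. It had 10.2 FPKM in ApoE3 and 7.58 FPKM in ApoE4 at 7 dpi, and 122 FPKM in ApoE3 and 35.7 FPKM in ApoE4 at 21 dpi. Among the members listed at both times it had the largest log2 ratio of 21 over 7 dpi, in both genotypes. In ApoE3 it moved from above 23.9% of listed genes at 7 dpi to above 81.5% at 21 dpi, and in ApoE4 from 18.6% to 49.2%. These shares do not depend on a scaling of the whole sample, but the genes listed differ between the times.

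DRP2, dystrophin-related protein 2, joins periaxin in a complex that ties the outer Schwann cell membrane to the basal lamina. Its level was 84.0 FPKM in ApoE3 and 81.7 FPKM in ApoE4 at 7 dpi, and 294 FPKM in ApoE3 and 109 FPKM in ApoE4 at 21 dpi. As with PMP22, the genotypes were alike at 7 dpi and the later ApoE3 value stood above the others.

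GLDN encodes gliomedin, which Schwann cell microvilli release to gather sodium channels at the nodes of Ranvier. It had 0.678 FPKM in ApoE3 and 0.847 FPKM in ApoE4 at 7 dpi, and 2.12 FPKM in ApoE3 and 0.960 FPKM in ApoE4 at 21 dpi. These are among the lowest values in the table. GLDN exceeded 0.276% and 0.786% of listed genes at 7 dpi in ApoE3 and ApoE4, and 7.16% and 0.680% at 21 dpi.

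EGR2, also called Krox20, is the transcription factor that Schwann cells need to myelinate, and it is also made by activated macrophages and lymphocytes. It had 33.1 FPKM in ApoE3 and 51.6 FPKM in ApoE4 at 7 dpi, and 73.0 FPKM in ApoE3 and 46.1 FPKM in ApoE4 at 21 dpi. The order of the genotypes was thus opposite at the 2 times, and the ApoE4 values of both times lay between those of ApoE3.

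**Figure D1:**
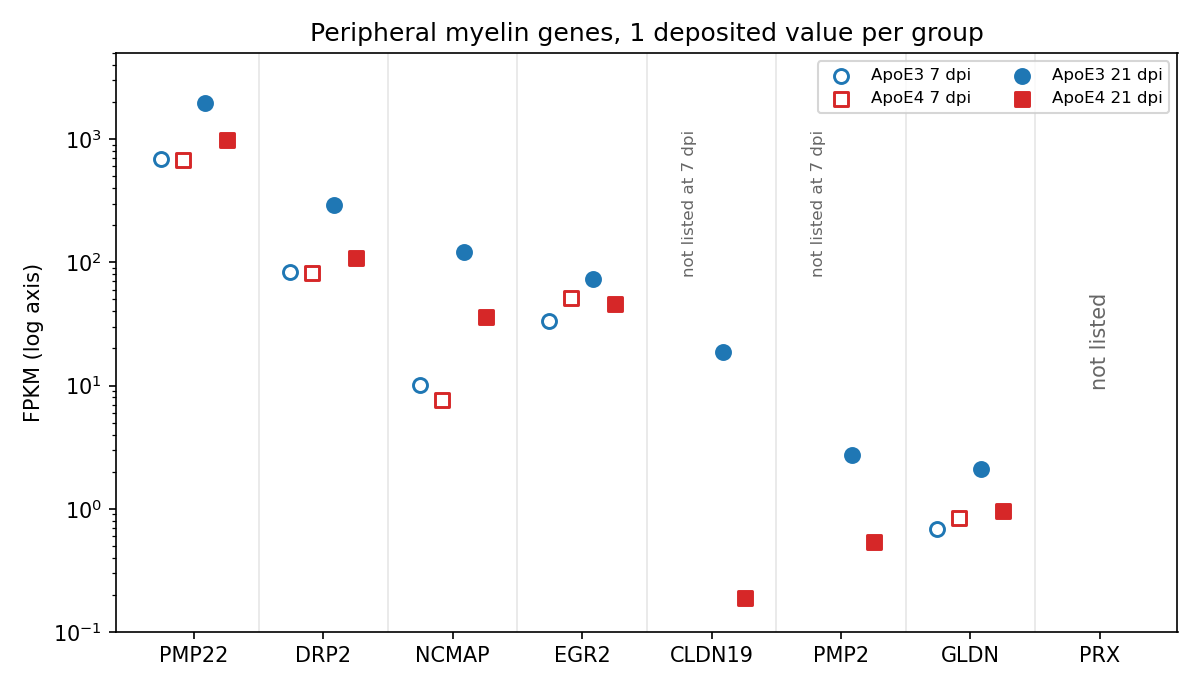
FPKM (log axis) of each peripheral myelin gene in the 4 groups, with open symbols for 7 dpi, filled symbols for 21 dpi, circles for ApoE3 and squares for ApoE4. Each symbol is 1 deposited value with no error. The filled circle lies above the filled square for all 7 genes listed at 21 dpi, with the widest gap for CLDN19 (18.6 and 0.188 FPKM).

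At 7 dpi none of the 5 listed genes was called in either direction. Over all listed genes, 0.333% were called higher in ApoE3 and 0.255% lower. The centred log2 ratios were 0.044 for PMP22, 0.037 for DRP2, 0.38 for NCMAP, -0.14 for GLDN and -0.63 for EGR2. Their median was 0.037, beside 0.00 for all listed genes. EGR2 was the member farthest from the median at this time and ranked 13947 of 14123, toward the ApoE4 end.

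At 21 dpi all 7 listed genes were called higher in ApoE3, where 1.37% of all listed genes were called higher and 1.1% lower. Since the genes were selected with this comparison in view, nothing is read from the count. The centred log2 ratio was 1.41 for PMP22, 1.71 for PMP2, 1.85 for DRP2, 2.17 for NCMAP and 4.47 for CLDN19. EGR2 (1.08) and GLDN (1.09) lay just inside the 2-fold limit, and no listed member lay outside it. The median of the 7 was 1.71, beside 0.00 for all listed genes. Before centring, 4 of the 7 were at least 2-fold higher, namely NCMAP (1.74), CLDN19 (4.04), DRP2 (1.42) and PMP2 (1.29), beside 0.741% of all listed genes. PMP22 (0.99), GLDN (0.67) and EGR2 (0.65) were then higher in ApoE3 by less than 2-fold.

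The same values can be read along time within each genotype, for the 5 genes listed at both times. Both times may have been normalized separately, so levels set across them rest on the centring. In ApoE3, 4 of the 5 were called higher at 21 than at 7 dpi, beside 4.45% of the 10876 genes listed at both times. The centred log2 ratio was 3.37 for NCMAP, 1.71 for DRP2, 1.42 for PMP22 and 1.03 for EGR2, and 0.80 for GLDN, which was not called. GLDN depended on the pseudocount, with 1.41 and a call when 0.1 was added to each FPKM and 1.53 and a call when 0.01 was added, so that all 5 were then called, beside 5.46% and 5.56% of all genes. In ApoE4, NCMAP was the 1 member of the 5 called higher (1.57), beside 5.09% of all genes. The other values in ApoE4 were 0.037 for PMP22, -0.11 for DRP2, -0.44 for GLDN and -0.68 for EGR2, of which DRP2 (0.41) and GLDN (0.085) turned positive without centring and EGR2 (-0.16) did not. Without centring, 663 genes were at least 2-fold higher and 789 lower at 21 dpi in ApoE3, against 484 and 926 with it. In ApoE4 these counts were 2313 and 435 without centring, against 554 and 985 with it. The median of the 5 was 1.42 in ApoE3 and -0.11 in ApoE4, beside -0.001 for all genes in each. The ApoE3 change over time and the genotype difference at 21 dpi share the ApoE3 values at 21 dpi, so they are not separate observations. Lists of other tissues, described below, had these centred medians over time in ApoE3 and then ApoE4. Only genes listed at both times count in them. Sensory ganglion neurons had 0.80 and 0.97 over 8 of 19 genes, spinal neurons 0.40 and 0.69, and central myelin 0.009 and 0.30. The 8 sensory genes include CALCA, CALCB, TAC1 and NEFH, which neurons of the cord also make. SCN10A, AVIL and PRDM12, among others called higher in ApoE3 at 21 dpi, were not listed at 7 dpi and do not count. Fibroblasts had -1.01 and -2.18, and skeletal muscle -0.75 and 2.72. Their part in the values of the members was not tested.

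**Figure D2:**
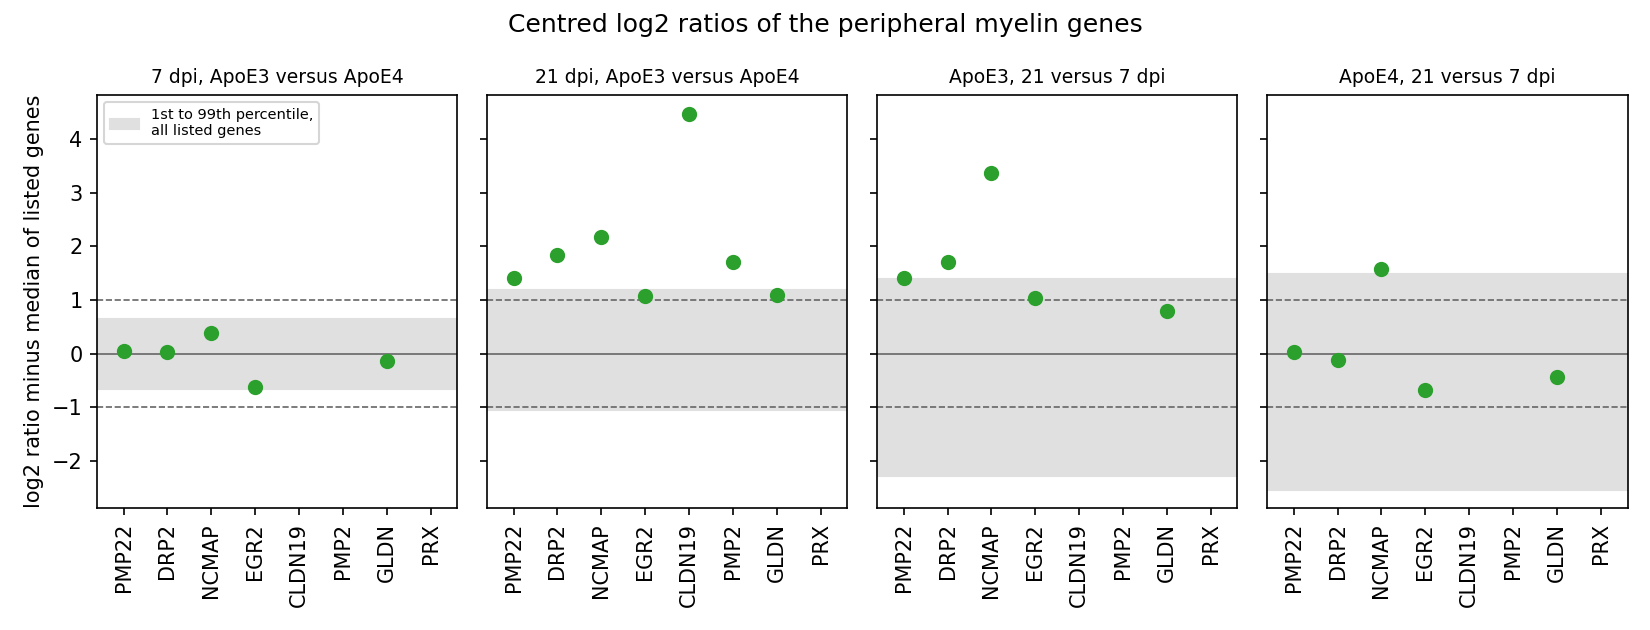
Centred log2 ratios of the peripheral myelin genes in the 4 comparisons, with 1 point per listed gene, dashed lines at 2-fold and grey bands from percentile 1 to percentile 99 of all listed genes. At 7 dpi the 5 points lie between -0.63 and 0.38, and at 21 dpi the 7 points lie between 1.08 and 4.47. Over time the points lie between 0.80 and 3.37 in ApoE3 and between -0.68 and 1.57 in ApoE4.

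Of the 8 genes, 6 matched an entry in the RefSeq promoter table (GRCm38.p6), and PMP2 and DRP2 did not. The 6 had 15 annotated starts, several of them near each other. PRX is among the 6, though it has no expression value here. Since EGR2 is one of the 8 genes, the 250 bases before each start were searched on both strands for the EGR motif GCGTGGGCG, its variant GCGGGGGCG, the shorter EGR core GTGGGNG and the SOX motif ACAANG. Each match to GCGTGGGCG also holds a match to the shorter core, and all are sequences that EGR or SOX factors are known to bind. Neither longer EGR motif was in any of the 15 windows, and over all 32851 windows GCGTGGGCG was in 0.536% and GCGGGGGCG in 2.57%. GTGGGNG was in 5 of the 15, before starts of CLDN19, EGR2, NCMAP and PRX, beside 28.1% of all windows. The windows of CLDN19 overlap and share 1 match. Counted by gene, GTGGGNG was before a start of 4 of the 6, beside 30.8% of all genes. ACAANG was in 1 of the 15, before a start of EGR2, beside 36.3% of all windows, and by gene in 1 of the 6, beside 39.9%. A gene with more starts has more windows in which a match can fall. The share of G and C ran from 48.8% to 73.6% in the 15 windows, beside a median of 52.4% over all windows. Most of the 15 lay above that median, and the shares with a motif were not adjusted for it. A match is a description of the letters and no sign that a factor binds. The bases before the first start of PMP22, CLDN19 and NCMAP are printed. Among the members these genes have the highest level, the highest ratio at 21 dpi and the largest ratio over time. PMP22 is read from chr11:63128732-63128981 (plus strand), CLDN19 from chr4:119255191-119255413 (plus strand, ending where GENCODE places the first exon) and NCMAP from chr4:135398228-135398477 (minus strand). All are written 5′ to 3′ on the gene's strand, and capitals mark GTGGGNG.
PMP22: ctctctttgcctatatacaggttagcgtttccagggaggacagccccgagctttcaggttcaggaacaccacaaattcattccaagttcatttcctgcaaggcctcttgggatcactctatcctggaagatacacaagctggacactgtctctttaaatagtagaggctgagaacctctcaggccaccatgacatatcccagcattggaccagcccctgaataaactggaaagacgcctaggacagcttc
CLDN19: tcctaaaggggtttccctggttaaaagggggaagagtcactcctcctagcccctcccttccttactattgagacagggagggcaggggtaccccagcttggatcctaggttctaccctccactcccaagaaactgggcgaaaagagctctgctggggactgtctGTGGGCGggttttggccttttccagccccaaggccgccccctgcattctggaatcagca
NCMAP: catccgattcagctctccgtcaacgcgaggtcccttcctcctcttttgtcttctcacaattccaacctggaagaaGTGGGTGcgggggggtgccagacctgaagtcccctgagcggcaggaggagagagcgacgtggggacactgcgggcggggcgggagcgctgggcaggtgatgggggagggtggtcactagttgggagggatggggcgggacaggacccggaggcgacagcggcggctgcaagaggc
CLDN19 and NCMAP each hold 1 match to GTGGGNG and PMP22 holds none of the 4 motifs in the stretch shown.

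The 8 genes were chosen with their difference at 21 dpi in view, so the values of other genes in this and the following lists are a description, and a smaller difference than in the 8 can follow from that choice alone. At 21 dpi 1.37% of all listed genes were called higher in ApoE3 and 1.1% lower, which holds beside the calls in every list. The first list is peripheral myelin structure. The list as used holds 17 genes, not all those known in peripheral myelin. Of the 17, 11 are not among the 8, and 6 of those 11 were listed at 21 dpi. None of the 6 was called, and their median centred log2 ratio was 0.10. They were GJB1 (connexin 32, 0.12), CD9 (0.15), MAL (-0.051), CADM4 (-0.053), CLDN5 (0.085) and FBLN5 (0.49). Several of these are also made in quantity within the cord, GJB1 and MAL by oligodendrocytes and CLDN5 by endothelial cells. GJB1 had 390 FPKM in ApoE3 and 481 FPKM in ApoE4 at 21 dpi. At 7 dpi, 9 of the 11 were listed, none was called, and the median was 0.070. MAG and TJP1 were listed at neither time, and UGT8A, GAL3ST1 and FA2H at 7 dpi only.

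Proteins of the node and of the contact with the axon gave 17 genes, 16 besides GLDN. At 21 dpi, 13 of the 16 were listed, none was called, and the median was 0.015. NFASC and CNTNAP1, which build the node flank and its septate-like junctions, had centred log2 ratios of 0.074 and 0.23. At 7 dpi all 16 were listed, none was called, and 13 lay above the median of all genes, with a list median of 0.12.

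Among the transcription factors of the Schwann cell, EGR2 was the 1 gene called at 21 dpi of 13 listed. SOX10, which is needed at every stage of the Schwann cell and also marks oligodendrocytes, had 77.9 FPKM in ApoE3 and 91.9 FPKM in ApoE4 (centred 0.19). POU3F1, the factor of the promyelinating stage, had 4.72 and 5.98 FPKM (0.13). The 12 listed genes other than EGR2 had a median of 0.081. JUN, which rises in repair Schwann cells and in many injured cells, had a ratio of -0.19. EGR1 and EGR3, also zinc finger factors of the EGR family, had ratios of -0.23 and -0.79, opposite in sign to EGR2. The median of the 16 factors listed at 7 dpi was -0.095, with none called.

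Neuregulin from the axon acts on the receptor pair ERBB2 and ERBB3 to drive myelination, and the receptor Gpr126 (ADGRG6) acts beside it. Of 12 genes in this list 9 were listed at 21 dpi, none was called, and the median was 0.028. ERBB3 had 7.53 FPKM in ApoE3 and 6.51 FPKM in ApoE4 (centred 0.61), ERBB2 had 1.26 and 0.830 FPKM (0.73), and ADGRG6 had 15.0 and 17.6 FPKM (0.20). NRG1 itself had 325 and 527 FPKM (-0.27). At 7 dpi 11 were listed, none was called, and the median was 0.014.

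The Schwann cell basal lamina and its receptors gave 21 genes, of which 15 were listed at 21 dpi with a median of 0.29. LAMB1, a laminin chain, was called higher in ApoE3, with 8.45 FPKM against 3.33 FPKM (centred 1.55), and the other 14 were not called. LAMA2, the laminin chain most typical of the Schwann cell, had 20.7 FPKM and 18.9 FPKM (0.55). At 7 dpi none of 21 was called and the median was -0.059.

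Markers of immature, non-myelinating and repair Schwann cells gave 21 genes, of which 14 were listed at 21 dpi with a median of 0.029. The 3 called were all higher in ApoE3. NGFR, the p75 neurotrophin receptor, had 8.09 FPKM in ApoE3 and 1.91 FPKM in ApoE4 (centred 2.07). SCN7A, a sodium channel of non-myelinating Schwann cells and sensory neurons, had 4.80 and 0.630 FPKM (2.26), and SOSTDC1 had 3.92 and 0.914 FPKM (1.79). CDH19, a cadherin of Schwann cell precursors, had 28.7 and 30.2 FPKM (0.35). GFAP, S100B, FABP7, SOX2 and OLIG1 of this list are also made by glia of the cord, and GFAP was its most abundant gene, with 8201 FPKM in ApoE3 and 15313 FPKM in ApoE4. At 7 dpi none of the 15 listed was called and the median was -0.076.

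For central myelin 14 of 19 genes were listed at 21 dpi, none was called, and 11 of the 14 lay below the median of all genes, with a list median of -0.12. Sums of FPKM are given here without centring. The summed level was 19525 FPKM in ApoE3 and 26815 FPKM in ApoE4, and MOBP was the most abundant, with 8177 and 11960 FPKM. At 7 dpi none of 17 was called, the median was 0.11, and the sums were 13339 and 13553 FPKM, again with MOBP the most abundant. The sums at the 2 times cover different genes, since CNP, for one, was listed at 21 dpi only. For the 7 listed peripheral genes the sum at 21 dpi was 2482 FPKM in ApoE3 and 1185 FPKM in ApoE4, of which PMP22 gave most. For the 5 listed at both times it was 821 FPKM and 813 FPKM at 7 dpi, and 2461 FPKM and 1184 FPKM at 21 dpi. In a tissue segment, more cells of a type and more RNA per cell cannot be told apart.

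**Figure D3:**
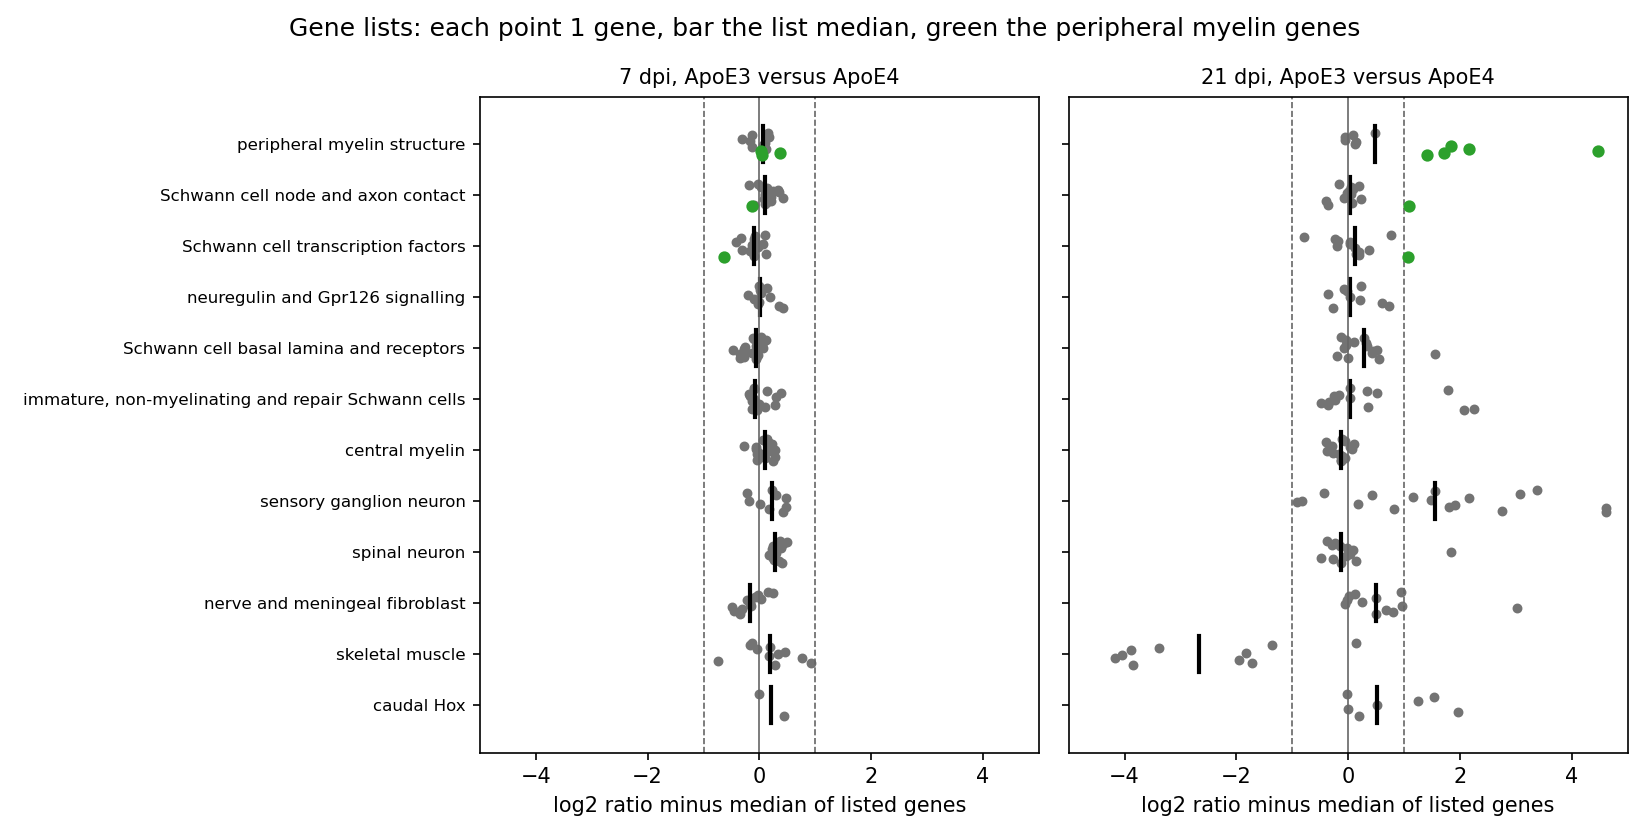
Centred log2 ratios of ApoE3 over ApoE4 for the genes of 12 lists at 7 and 21 dpi, with 1 point per listed gene, a bar at the list median, dashed lines at 2-fold and the peripheral myelin genes in green. At 21 dpi the list medians are 0.49 for peripheral myelin structure, 1.56 for sensory ganglion neurons, -0.12 for central myelin and -2.66 for skeletal muscle. The value of 0.49 includes green genes chosen with this comparison in view, and without them the median is 0.10 over 6 genes.

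Genes of tissues next to the cord differed between the genotypes at the same time. Sensory neurons have their cell bodies in the ganglia of the dorsal roots, where Schwann cells also lie. Of 19 sensory ganglion markers 17 were listed at 21 dpi, 11 were called higher in ApoE3, beside 1.37% of all listed genes, none was called lower, beside 1.1%, and the median was 1.56. SCN10A, a sodium channel of pain-sensing neurons, had 20.1 FPKM in ApoE3 and 0.153 FPKM in ApoE4 (centred 4.62). AVIL had 39.1 and 1.20 FPKM (4.61), and PRDM12 6.80 and 0.237 FPKM (3.08). TRPV1 and MRGPRD had 1.61 and 1.80 FPKM in ApoE3 and were listed at 0 in ApoE4. CALCA was the most abundant, with 702 and 830 FPKM (0.18), and is also made by motor neurons. CALCB (-0.91), TAC1 (-0.82) and NEFH (-0.42), which spinal neurons also make, lay on the other side. The list summed to 1268 FPKM in ApoE3 and 1666 FPKM in ApoE4, and the log2 ratio of these sums was -0.39 before centring and 0.030 after it. At 7 dpi 9 of the 19 were listed, none was called, the median was 0.23, and the sums were 731 FPKM in ApoE3 and 590 FPKM in ApoE4, again with CALCA the most abundant. The part of ganglion or root tissue in the values of the peripheral myelin genes was not tested.

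Markers of neurons of the cord had a median of -0.13 at 21 dpi over 13 listed of 16 genes, with 1 called higher in ApoE3, SLC17A7 (1.84), with 3.06 FPKM in ApoE3 and 0.519 FPKM in ApoE4. At 7 dpi all 14 listed lay above the median, none was called, and the list median was 0.28. The sums were 10369 FPKM in ApoE3 and 8083 FPKM in ApoE4 at 7 dpi, and 11435 and 17611 FPKM at 21 dpi. The most abundant gene was MAP2 at 7 dpi and SNAP25 at 21 dpi.

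Fibroblasts of nerve and meninges gave 12 of 16 listed genes at 21 dpi with a median of 0.50, and DCN, decorin, was the 1 called, with 61.9 FPKM in ApoE3 and 9.37 FPKM in ApoE4 (3.02). The collagen chains COL1A1, COL1A2 and COL3A1 had ratios of 0.50, 0.81 and 0.67. The list summed to 474 FPKM in ApoE3 and 447 FPKM in ApoE4, and SLC2A1 was the most abundant, with 181 and 223 FPKM. The log2 ratio of these sums was 0.083 before centring and 0.51 after it. At 7 dpi none of 14 was called, the median was -0.17, and the sums were 2921 and 2855 FPKM with IGF2 the most abundant.

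Skeletal muscle, which lies beside the vertebrae, differed the other way. Of 18 genes 10 were listed at 21 dpi, 9 were called lower in ApoE3, beside 1.1% of all listed genes, and the median was -2.66. The sum was 40.4 FPKM in ApoE3 and 744 FPKM in ApoE4, of which TNNT3 gave 22.4 and 516 FPKM, and MYH4 was listed at 0 in ApoE3. At 7 dpi none of 11 was called, the median was 0.18, and the sums were 194 and 161 FPKM with PVALB, which spinal neurons also make, the most abundant. Caudal Hox genes, active below the thoracic cord, gave 7 of 12 listed at 21 dpi with a median of 0.51. HOXB13 (1.97), HOXC13 (1.54) and HOXC12 (1.26) were called higher in ApoE3, beside 1.37% of all listed genes, and the values of HOXB13 and HOXC13 in ApoE4 were 0. All were low, with 1.92 FPKM for HOXB13 and 1.17 FPKM for HOXC13 in ApoE3. HOXC12 had 2.58 FPKM in ApoE3 and 1.01 FPKM in ApoE4. HOXD10, at a higher level, had 20.8 and 28.7 FPKM (-0.022). HOXC10, the most abundant, had 27.7 FPKM in ApoE3 and 37.5 FPKM in ApoE4 (-0.002), and the sums were 59.4 and 72.7 FPKM. At 7 dpi 2 were listed, HOXA10 (0.44) and HOXC10 (-0.016), with a median of 0.21 and sums of 15.3 and 13.0 FPKM. The part of the level of the cord sampled, or of muscle in the segment, in the results for the peripheral myelin genes was not tested.

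Profiles over the 4 groups were compared for the genes listed at both times with a mean FPKM of at least 1. Each profile was log2(FPKM + 1) minus its mean over the 4 groups, and likeness was the Euclidean distance to the median profile of the 5 members. That median profile was -0.53 in ApoE3 and -0.54 in ApoE4 at 7 dpi, and 1.01 and -0.086 at 21 dpi. Profiles were not centred between groups, and the direction over time in ApoE4 depends on that. The median log2 ratio of the members for 21 over 7 dpi in ApoE4 was 0.41 without centring and -0.11 with it. The members themselves make up the median profile, so their own nearness to it is in part fixed by construction. PMP22 lay at a distance of 0.12, DRP2 at 0.26, GLDN at 0.61, EGR2 at 0.76 and NCMAP at 1.85, where NCMAP would rank 9398 among the other genes. Profiles were not scaled in size, so a larger change of similar shape also counts as distance. That of NCMAP was -1.20 in ApoE3 and -1.58 in ApoE4 at 7 dpi, and 2.26 and 0.52 at 21 dpi. Of 10856 other genes the 10 nearest were PNLDC1 (0.27), ABCA8A (0.29), HOXB5OS (0.29), FILIP1 (0.31), FAM166B (0.33), VGLL3 (0.34), NGFR (0.40), CFAP65 (0.43), ISL1 (0.43) and BCAM (0.44). NGFR is also in the list of non-myelinating and repair Schwann cells and ISL1 in that of sensory neurons. ABCA8A had 27.7 and 29.4 FPKM in ApoE3 and ApoE4 at 7 dpi, and 73.2 and 44.4 FPKM at 21 dpi. BCAM, a receptor for laminin, had 16.9 and 19.7 FPKM at 7 dpi, and 45.8 and 31.4 FPKM at 21 dpi. A distance over 4 values describes these groups and says nothing of shared control.

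**Figure D4:**
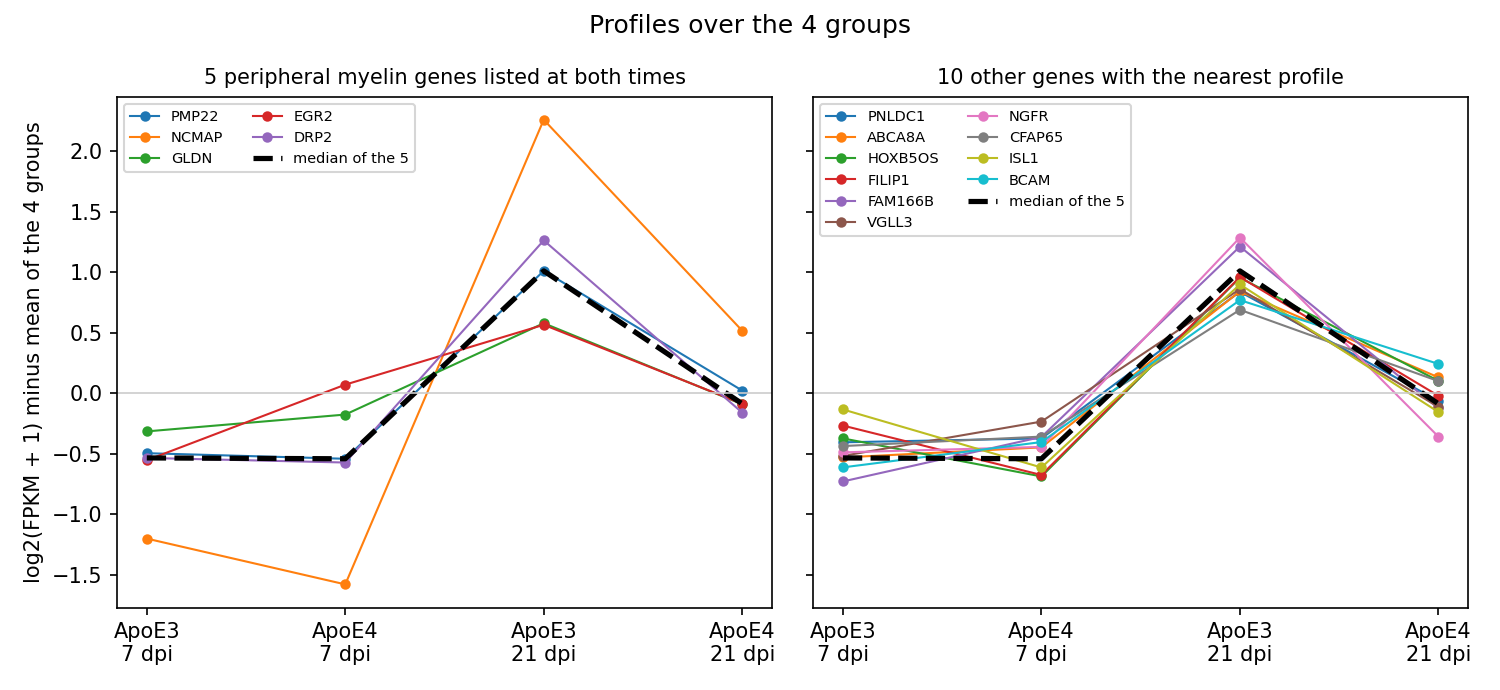
Profiles, as log2(FPKM + 1) minus the mean of the 4 groups, of the 5 peripheral myelin genes listed at both times and of the 10 other genes nearest to their median (dashed line). Levels are not centred between groups. Lines join the 4 values of a gene, and the median has its highest value, 1.01, in ApoE3 at 21 dpi. The 10 genes were picked for nearness to it, so a peak in the same group follows from the choice.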

How the data were processed

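The authors prepared libraries with the TruSeq RNA v2 kit, down-sampled all libraries to the same number of single-end reads, and used STAR 2.5.4b and Cuffdiff 1.3.0, per the submitters' processing notes. By the study's methods the down-sampling came before alignment, and 1 replicate aligned a smaller share of its reads than the others. The group of that replicate is not known here. The genome build and annotation were not given in the sources used here. For every gene the deposited table gives 1 value per genotype and time, FPKM plus 1, and 1 was subtracted here. The table also holds the authors' fold changes, p-values and q-values for each gene, and a second table their differentially expressed genes, and none of these was used.

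The members and gene lists were chosen with earlier results of these data known. Some other genes of peripheral myelin and of the planned lists are not reported here and were left out of all list counts, medians and sums. Symbols on 2 rows at a time point (2 at each) were left out. Centring took the median over genes whose mean FPKM reached 1. Named genes are the members, genes of the 12 lists, and the 10 with the nearest profile. A planned comparison of protein sequences was not done. Alternatives were pseudocounts of 0.1 and 0.01, no centring, a mean FPKM of at least 1, folds of 1.5 and 1.3, and, added after the data were seen, genotypes read by column number. The centring and the calls were tested on simulated data without genes of low level. The profile distance and the motif search were not tested in this way. Of all symbols, 14645 of 14717 matched reference symbols, as did all 8 members. Python 3.11.15, numpy 2.4.6, pandas 2.3.3 and matplotlib 3.10.9 were used.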

Additional observations from a re-analysis of the deposited data

Results flagged for a closer look

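For 3 genes the centred log2 ratio had opposite signs in the matched comparisons, each from 1 value per group, and the difference was not tested. For ApoE3 over ApoE4, EGR2 had -0.63 at 7 dpi and 1.08 at 21 dpi, and GLDN had -0.14 and 1.09. For 21 over 7 dpi, EGR2 had 1.03 in ApoE3 and -0.68 in ApoE4, GLDN had 0.80 and -0.44, and DRP2 had 1.71 and -0.11. Without centring, GLDN (0.89 and 0.085) and DRP2 (1.80 and 0.41) were positive in both genotypes over time, and the pairs of EGR2 and the genotype pair of GLDN kept opposite signs. These pairs rest on the same 4 values of each gene. The values of DRP2 at -0.11 and of GLDN at -0.14 are close to 0, and GLDN was at or below 2.12 FPKM in every group.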

How the results depend on the processing

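At 7 dpi no member was called higher in ApoE3 under any setting run, and EGR2 (-0.63) was called lower with folds of 1.5 and 1.3, beside 1.53% and 4.82% of all genes. At 21 dpi 4 of the 7 were called higher without centring and all 7 under the other planned settings. A lower fold cannot lose a call, a smaller pseudocount widens every ratio before centring, and PMP2, GLDN and CLDN19 reach the minimum mean FPKM through ApoE3 alone, so those counts of 7 say nothing of stability. The share of all genes called higher at 21 dpi was then 1.65% with a pseudocount of 0.1, 1.67% with 0.01, 3.53% with a fold of 1.5, 7.46% with 1.3, 1.19% with the minimum mean FPKM and 0.741% without centring. CLDN19 had 6.47 and 7.00 with pseudocounts of 0.1 and 0.01, and PMP2 had 2.61 and 2.79. The median of the members at 21 dpi was 1.88 with a pseudocount of 0.1, 1.88 with 0.01 and 1.29 without centring. For 21 over 7 dpi in ApoE3 it was 1.41, 1.53 and 1.51 under these settings, and in ApoE4 -0.14, -0.14 and 0.41. In ApoE3 5 members rather than 4 were called higher over time with both other pseudocounts and both lower folds, GLDN being the addition, with 1.41 at a pseudocount of 0.1 and 1.53 at 0.01. The share of all genes called higher was 5.46% and 5.56% with these pseudocounts, 16.2% with a fold of 1.5 and 26.6% with 1.3, so the count at the lower folds says little. In ApoE4 EGR2 (-0.68) was called lower over time with both lower folds, and GLDN (-0.44) with 1.3, beside 19.3% of all genes called lower with 1.5 and 28.6% with 1.3. With a minimum mean FPKM of 1 the ApoE4 median was -0.038 over 4 genes. Of 66 values of single genes under the planned settings 9 were the same to 2 decimals. Without centring, DRP2 (0.41) and GLDN (0.085), not called over time in ApoE4, changed sign. Reading the genotypes by column number, chosen after seeing the data, gave 0 members called higher in ApoE3 at 21 dpi, beside 1.1% of all genes, and 7 called lower, beside 1.37%. The medians were then -0.037 at 7 dpi and -1.71 at 21 dpi. Over time ApoE3 then had 1 member called higher, beside 5.09% of all genes, with a median of -0.11, and ApoE4 had 4, beside 4.45%, with a median of 1.42. At 21 dpi PMP22 then had -1.41, PMP2 -1.71, DRP2 -1.85, NCMAP -2.17, CLDN19 -4.47, EGR2 -1.08 and GLDN -1.09. For 21 over 7 dpi in ApoE3, EGR2 then had -0.68, GLDN -0.44 and DRP2 -0.11. No paired analysis was possible because each group has 1 value. The number of reads behind a value is unknown, which limits what can be said of values below 1 FPKM. These are PMP2, GLDN and CLDN19 in ApoE4, and GLDN in ApoE3 at 7 dpi.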
